A study of Drosophila melanogaster with 16 samples.

Results

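The comparison described here is grn RNAi against control in Drosophila melanogaster larvae kept on a low sugar diet (LSD), in which RNA-seq measured every expressed gene in whole animals. It takes 8 of the 16 libraries of the series, 4 per genotype, and each library was made from 20 pooled larvae. Control larvae carried the ubiquitous driver Tub-GAL4 with a TRiP line that expresses a dsRNA against luciferase, a gene that flies lack, and grn RNAi larvae carried the same driver with a TRiP line against grain (grn). The control line and the RNAi line are different stocks, so a difference between the stocks cannot be told apart from an effect of the RNAi. All 8 libraries come from larvae reared on LSD, a food with 10% yeast and no added sucrose. Sampling came 8 h after their transfer to new LSD plates. The other 8 libraries come from larvae of the same 2 genotypes that were also reared on LSD. For the last 8 h these were on a high sugar diet (HSD, 10% yeast with 15% sucrose). Titles were used to assign the groups, because the labels' genotype entry reads wild type for every LSD library and erk7 mutant for every HSD library, whichever RNAi line the title names. The larval stage is also given unevenly, as 3rd instar in the labels and as early 2nd instar in the methods. With libraries of whole larvae, fewer cells of a type and less RNA per cell cannot be told apart.

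Grain is 1 of the fly's GATA factors, zinc finger proteins that bind GATA motifs and set the fate or the function of cells in several organs. The larval midgut, whose enterocytes secrete digestive proteases and carbohydrases, and the epidermis, which lays down a chitin cuticle at each moult, both use GATA factors. In the cuticle, chitin fibres are bound by structural proteins of the Cpr, Lcp and Tweedle families, modified by deacetylases, and hardened by catecholamines made from tyrosine.

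The level of grn (FBgn0001138, chromosome 3R from 8147368 to 8181444 in genome Release 6) was examined first, because it checks the labels. In normalized CPM (reads scaled by a factor per library but not to equal sums, the level used below for every gene), grn stood at 14.6, 17.8, 20.8 and 19.1 in the control libraries and at 227, 259, 229 and 240.3 in the libraries labelled grn RNAi. Reads counted as grn were therefore higher in each library labelled grn RNAi, which goes against the label of a knockdown (log2 fold change 3.70 ± 0.10 (SE), adjusted p = 3.5e-12 from limma). The same difference reached p = 0.029 when the 4 and 4 libraries were compared by exact permutation (two-sided), and no smaller p is possible with these numbers. Whether these reads come from the endogenous transcript or from the RNAi construct was not tested, so all directions below are those of libraries labelled grn RNAi against libraries labelled control.

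The tables held 24038848 to 26477434 reads per library in control and 27597117 to 32644817 in grn RNAi. Within a group the log2 levels of 2 libraries correlated at 0.979 to 0.995 across genes, and between the groups at 0.912 to 0.944, and the first principal component of the 8 libraries, 75.5% of their variance, separated the genotypes. The deposited values summed to between 1048077 and 1131938 in the control libraries and between 929735 and 944537 in the grn RNAi libraries.

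Of 9950 genes tested, 5391 passed an adjusted p of 0.05 (54.2%, limma with Benjamini-Hochberg adjustment, the test behind every adjusted p below), with 2699 higher (27.1%) and 2692 lower (27.1%) in grn RNAi. The 2 directions differed in size. At least 2-fold changes numbered 191 upward (1.92%) and 705 downward (7.09%), and at least 4-fold changes 30 upward (0.302%) and 341 downward (3.43%). Fold changes are on the scale log2(normalized CPM + 0.5), which understates the change of genes at low levels. Below, lists of 4 values are replicates 1 to 4 of a group, a level with ± is the mean and SD of 4 libraries, and a signed number beside an adjusted p is a log2 fold change. The median log2 change over all genes was 0.03, and shares of called genes in the gene groups below are to be read against 27.1% in each direction. Calls of small changes depended on the scaling. Bringing each library to the same sum (equal sums below) moved that median from 0.03 to 0.22, with 5368 genes higher and 1598 lower, and quantile normalization moved it to 0.13, with 4105 higher and 1905 lower.

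**Figure D1:**
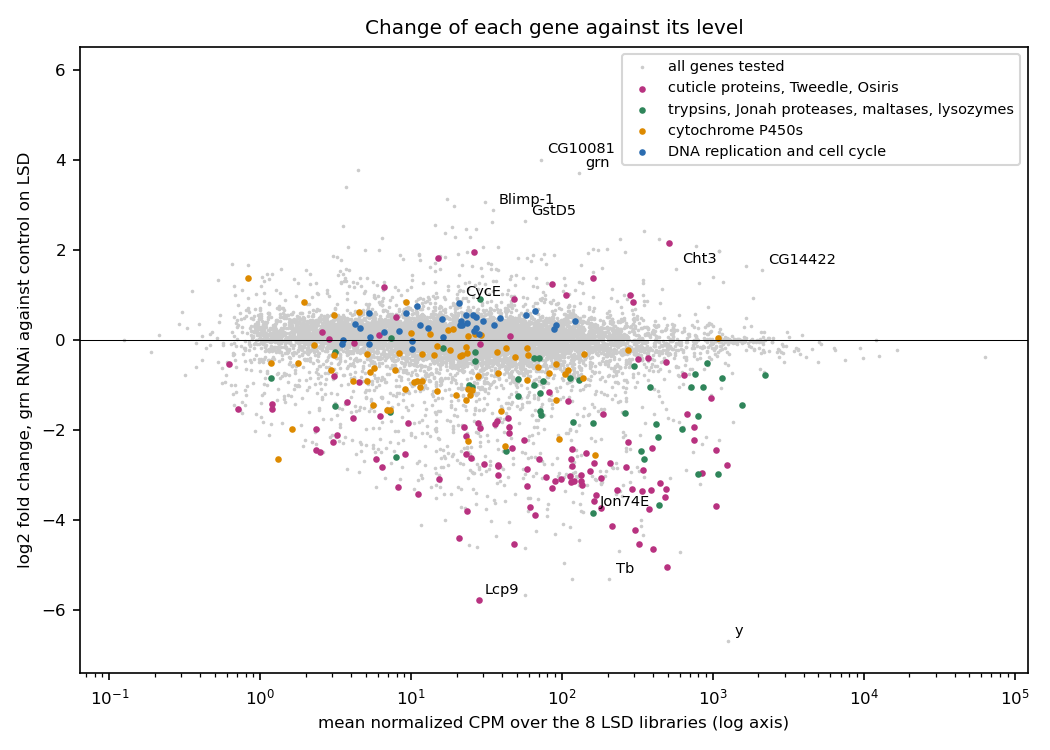
Log2 fold change of each of 9950 genes in grn RNAi against control on LSD, against its mean normalized CPM over the 8 libraries (log axis). Each point is 1 gene. Cuticle genes reach below -4 and digestive enzymes below -3, the P450s lie mostly below 0, the DNA replication genes lie mostly between 0 and 1, and y is the lowest point at -6.69.

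The largest fall was that of yellow (y), which encodes a secreted protein needed for black pigment. Its levels were 2610.4, 2417, 2432 and 2569 in control and 26.4, 26.9, 16.5 and 27.4 in grn RNAi, 103-fold lower on average (log2 fold change -6.69 ± 0.16 (SE), adjusted p = 1.7e-12). The groups lay far apart, and the spread within each of them was small beside the gap. On HSD, in other libraries, y went from 2212 ± 38.5 to 26.2 ± 6.54 (SD, n = 4). The gene lies on chromosome X from 356509 to 361245. It is also a marker in many fly stocks, and its alleles in the 2 stocks were not examined, so a stock difference at y cannot be told apart from an effect of the RNAi. Of the 6 other stock markers measured, v fell (-0.50, adjusted p = 4.5e-04), st fell (-0.37, adjusted p = 1.1e-04), bw (0.39, adjusted p = 0.0072) and cn (0.20, adjusted p = 0.024) rose, and w did not pass (0.11, adjusted p = 0.46). Of 10 measured members of the yellow family 6 fell, among them yellow-e, from 10.0 ± 1.05 to 2.26 ± 0.503 (-1.94, adjusted p = 1.2e-07).

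The largest falls and rises below are the 15 each way among genes that passed the test without overlap between the groups and averaged 10 or more in either of them. Besides y, the falls were 6 cuticle proteins, 7 genes with an identifier alone and Ipod, a partner of the methyltransferase Dnmt2. Lcp9, a larval cuticle protein, had 66.6, 21.5, 106 and 27.8 in control and 2.05, 0.103, 0.0665 and 0.0648 in grn RNAi (log2 fold change -5.78 ± 0.93 (SE), adjusted p = 1.4e-04). TwdlF, a Tweedle cuticle protein, had 519, 1670.3, 562 and 928 in control and 70.9, 5.48, 205 and 3.89 in grn RNAi (log2 fold change -5.04 ± 1.42 (SE), adjusted p = 0.0079). Tubby (Tb, chromosome 3R from 26656440 to 26657531), a Tweedle gene whose dominant allele shortens the larva, had 136, 693, 318 and 400.1 in control and 0.752, 10.1, 84.4 and 3.79 in grn RNAi (log2 fold change -5.31 ± 1.32 (SE), adjusted p = 0.0036). Within a group the levels of these genes varied many times more than those of most genes. Over the 15 genes the highest grn RNAi library stood a median of 25.1 times above the lowest (pseudocount included), against 1.13 times over all genes, and in control 4.19 times against 1.23 times.

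The libraries that were high differed between 2 sets of these genes. Tb, TwdlF, Ipod, CG15731, CG9083 and TwdlQ were highest in control replicate 2 and grn RNAi replicate 3. Lcp9, CG14851, CG14564, TwdlJ, CG14568, CG4229, CG42819 and TwdlK were highest in control replicate 1 or 3 and in grn RNAi replicate 1, and TwdlJ had 209, 41.9, 0.266 and 75.5 over the grn RNAi libraries. The same contrast of libraries formed the second principal component (9.66% of the variance), with control replicates 2 and 4 and grn RNAi replicate 3 on one side. For CG14564, TwdlJ, CG14568, CG4229, CG42819 and TwdlK the call depended on single libraries. Without control replicate 1 all 6 missed the threshold, and so they did without grn RNAi replicate 3, where TwdlJ stood at -2.94 (adjusted p = 0.12, the range over its alternatives being 0.019 to 0.12). All but CG14564 missed it without control replicate 3, all but TwdlK without grn RNAi replicate 2, and CG14568, CG4229 and CG42819 without grn RNAi replicate 4. TwdlJ also missed it without control replicate 2 or 4. The 6 kept their direction in each case. On HSD 10 of the 15 largest falls were called lower and the other 5 were not called. Of all 705 genes that fell at least 2-fold on LSD, 615 were called lower there (87.2%).

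**Figure D2:**
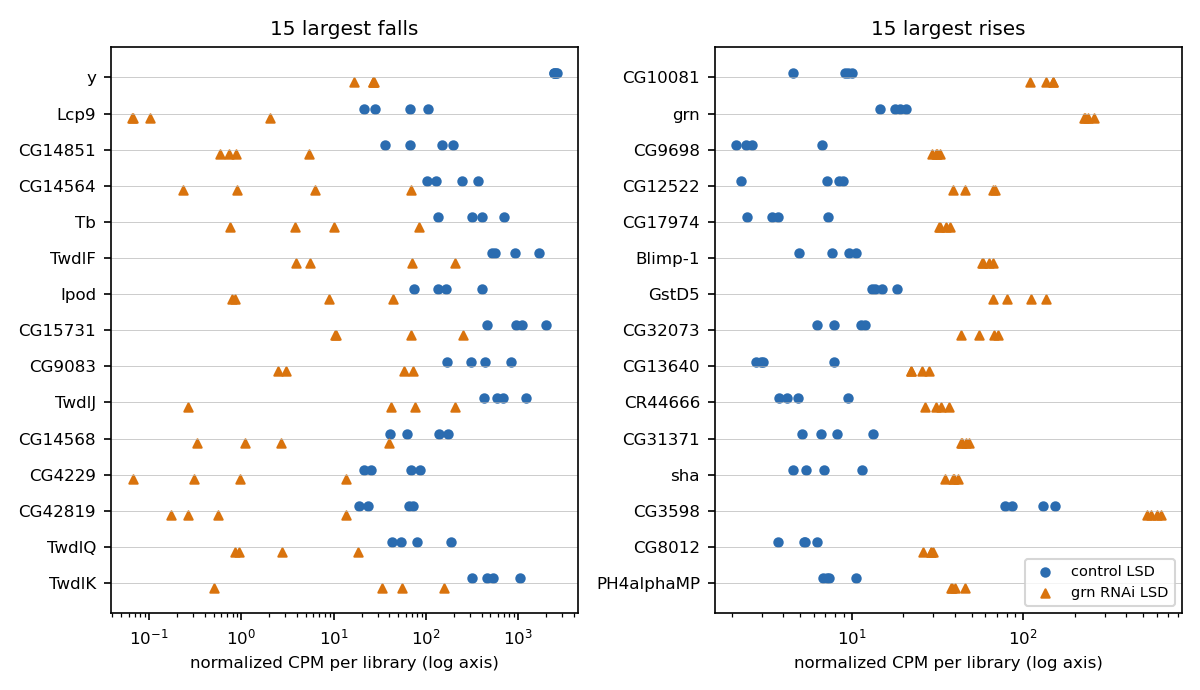
Normalized CPM (log axis) of the 15 genes with the largest fall (left) and the 15 with the largest rise (right) in each of the 4 control (circles) and 4 grn RNAi (triangles) libraries on LSD. Genes whose groups overlap were not eligible. The falls spread widely among the grn RNAi libraries, as for TwdlJ from 0.266 to 209, except for y, whereas the rises spread little there.

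**Figure D3:**
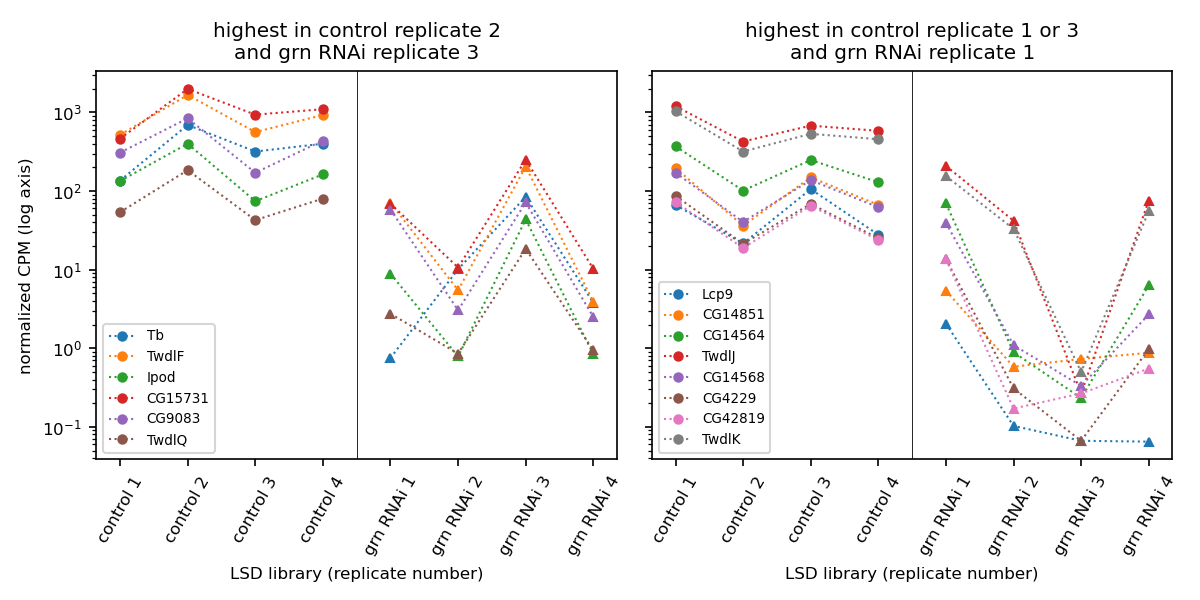
Normalized CPM (log axis) in each LSD library of 6 genes (left) and 8 genes (right) among the largest falls. Dotted lines join the values of a gene and replicates have no order. The genes on the left peak in control replicate 2 and grn RNAi replicate 3, those on the right in control replicate 1 or 3 and grn RNAi replicate 1.

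Genes that build the cuticle fell as families. Of 41 measured Tweedle and Osiris genes 38 fell (92.7%, median log2 fold change of the family -3.07), and leaving out single libraries left 31 to 38. Of 76 Cpr, Lcp and related cuticle proteins 54 fell (71.1%) and 9 rose (11.8%), with a median of -2.23. All grn RNAi libraries lay below all control libraries in 38 of the 41 and 57 of the 76 genes, and in 24.4% of all genes tested. Cpr64Ad, the cuticle protein with the lowest adjusted p, had 1766, 1481, 1221 and 1488 in control and 218, 201, 152 and 200.5 in grn RNAi (log2 fold change -2.95 ± 0.15 (SE), adjusted p = 1.9e-09). Cpr47Ec had 610.1 ± 54.2 and 61.6 ± 21.2 (-3.36, adjusted p = 6.9e-08), and TwdlV, with little spread between libraries, 417, 374, 292 and 366 and 51.3, 57.7, 49.8 and 54.9 (log2 fold change -2.74 ± 0.13 (SE), adjusted p = 8.6e-10). Among the 9 cuticle genes that rose, Cpr47Eb went from 191 ± 58.5 to 825 ± 63.8 (2.15, adjusted p = 7.8e-05), so that Cpr47Eb and Cpr47Ec, both on chromosome 2R, moved in opposite directions. On HSD 44 of the 54 cuticle proteins and 35 of the 38 Tweedle and Osiris genes were also lower. Among all genes, so were 1724 of the 2692 lower on LSD and 615 of the 705 that fell at least 2-fold (87.2%).

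Some of the genes that fell at least 2-fold lie close together. With such genes joined when no more than 20 kb apart, 14 runs of 5 or more held 111 of the 705 that fell. A single run held 6 of the 191 that rose. Other genes in between were passed over, and the sparsest spans held 5 of 13, 8 of 17 and 7 of 14 genes tested. How often such runs form among gene families was not tested. The run with the most genes, 21 of 24 genes tested in its span, lies on chromosome 3L from 16264713 to 16345241, from CG13051 to CG4998, with a median log2 fold change of -3.08. A Tweedle run of 12 of 14 genes, TwdlM to Tb, lies on chromosome 3R from 26619118 to 26657531 (median -3.85). All 7 tested genes from Ccp84Ag to Ccp84Aa fell on chromosome 3R from 6686728 to 6704903 (median -3.0), and 10 of 14 genes around Lcp65Ag2 on chromosome 3L from 6131242 to 6157377 (median -2.24). The Osiris genes gave 2 runs on chromosome 3R, of 6 and 8 genes. By chromosome arm, at least 4-fold falls made up 5.44% of the genes tested on 3L, 3.62% on 3R, 3.02% on X, 2.66% on 2R and 2.53% on 2L.

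Enzymes that make and modify chitin mostly fell. Of 31 chitin and peritrophic matrix genes 21 fell and 4 rose, against 15 and 7 with equal sums. The chitin deacetylases serpentine (serp, 1474 ± 148 to 332 ± 20.1, -2.15, adjusted p = 7.5e-09) and vermiform (verm, 1792 ± 244 to 384 ± 15.1, -2.21, adjusted p = 9.9e-09) fell more than 4-fold. The chitin synthase krotzkopf verkehrt (kkv) went from 279 ± 28.5 to 97.8 ± 19.0 (-1.52, adjusted p = 2.9e-06). The chitinase Cht7 had 434, 486, 396 and 478 in control and 97.0, 83.4, 87.0 and 73.7 in grn RNAi (log2 fold change -2.39 ± 0.12 (SE), adjusted p = 2.0e-09), while another chitinase, Cht3, rose from 287 ± 64.7 to 844 ± 64.0 (1.58, adjusted p = 4.3e-06). Chosen after their values were seen, 2 enzymes of the pathway from fructose 6-phosphate to UDP-N-acetylglucosamine, the chitin precursor, also fell. These were Gfat1 (497 ± 80.9 to 176 ± 12.5, -1.49, adjusted p = 3.0e-07) and mummy (mmy, 277 ± 55.1 to 87.7 ± 11.5, -1.64, adjusted p = 1.6e-06). Gfat2 (0.08, adjusted p = 0.16) and nst (-0.16, adjusted p = 0.071) of the same pathway did not pass, and the deacetylase Cda4 fell (-2.24, adjusted p = 2.4e-08).

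Of 10 measured genes of tyrosine and melanin metabolism 6 fell and 3 rose. Tyrosine hydroxylase (ple, 92.1 ± 35.6 to 20.2 ± 11.9, -2.22, adjusted p = 0.002) and dopa decarboxylase (Ddc, 51.8 ± 21 to 12 ± 5.11, -2.12, adjusted p = 0.0017) open the path to dopamine, and both fell more than 4-fold. The oxidase laccase2, which cross-links the cuticle, had 225, 287, 268 and 264 in control and 89.7, 81.3, 95.3 and 82.5 in grn RNAi (log2 fold change -1.57 ± 0.08 (SE), adjusted p = 3.0e-09). Dat, an arylalkylamine N-acetyltransferase, fell from 120.3 ± 4.6 to 84.9 ± 4.13 (-0.50, adjusted p = 9.0e-07). The 3 that rose were Hn, which makes tyrosine from phenylalanine, and the prophenoloxidases of crystal cells, PPO1 (0.58, adjusted p = 0.0036) and PPO2 (0.59, adjusted p = 0.0059).

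Some factors that time the moult also differed between the groups, in both directions. Of 20 measured ecdysone-responsive genes 6 rose (30%) and 7 fell (35%), near the 27.1% of all genes in each direction. The number higher was 10 with quantile normalization and 11 with equal sums. Blimp-1, an ecdysone-induced repressor outside that list, had 4.93, 10.6, 7.64 and 9.64 in control and 57.3, 58.0, 63.6 and 66.3 in grn RNAi (log2 fold change 2.88 ± 0.27 (SE), adjusted p = 8.1e-07), and it was among the 15 largest rises. ftz-f1, a nuclear receptor that follows an ecdysone pulse, went from 120.1 ± 19.9 to 22.5 ± 10.5 (-2.52, adjusted p = 1.5e-05), and Eip74EF from 52.6 ± 9.29 to 9.56 ± 5.24 (-2.57, adjusted p = 7.8e-05). The transporter E23 had 14.1, 16.4, 13.7 and 19.4 in control and 48.6, 53.5, 51.2 and 55.0 in grn RNAi (log2 fold change 1.70 ± 0.14 (SE), adjusted p = 2.0e-07), and ImpE3 5.36, 4.77, 3.09 and 5.10 and 18.1, 17.1, 18.9 and 17.8 (log2 fold change 1.89 ± 0.16 (SE), adjusted p = 2.4e-07). EcR, the ecdysone receptor, fell (-0.60, adjusted p = 0.0013), whereas ImpE1 (-1.48, adjusted p = 0.0073) and ImpE2 (-1.64, adjusted p = 0.012) fell more. Of 9 genes of ecdysone synthesis and breakdown 3 rose (33.3%) and 2 fell (22.2%), near the 27.1% of all genes in each direction. Those that rose were spok (7.13 ± 0.512 to 10.5 ± 1.03, 0.52, adjusted p = 1.2e-05), sad and shd. Among the 2 that fell was Cyp18a1, which inactivates ecdysteroids. It had 64.1, 49.4, 38.8 and 82.1 in control and 10.9, 29.4, 13.8 and 27.0 in grn RNAi (log2 fold change -1.57 ± 0.35 (SE), adjusted p = 0.0016). The part of a shift in moult timing in the cuticle genes was not tested.

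Of 11 juvenile hormone genes 6 fell and 2 rose. The epoxide hydrolase Jheh3, which breaks the hormone down, had 243, 227, 224 and 228 in control and 98.9, 98.9, 107 and 97.6 in grn RNAi (log2 fold change -1.19 ± 0.06 (SE), adjusted p = 7.1e-10), and Jheh1 (-0.42, adjusted p = 2.9e-07) and Jheh2 (-0.50, adjusted p = 1.3e-06) fell less. Kr-h1, the transcription factor induced by juvenile hormone, rose from 2.36 ± 0.323 to 6.38 ± 0.907 (1.26, adjusted p = 2.7e-07).

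Among the largest rises, 10 of 15 were genes with an identifier alone. CG10081 (chromosome 2R from 19385923 to 19389318) had 9.17, 4.55, 10.1 and 9.51 in control and 110.4, 149, 149 and 135 in grn RNAi (log2 fold change 4.0 ± 0.19 (SE), adjusted p = 9.5e-10). GstD5, a glutathione S-transferase, had 15.1, 13.7, 18.3 and 13.2 in control and 112, 135, 80.1 and 67.1 in grn RNAi (log2 fold change 2.63 ± 0.21 (SE), adjusted p = 1.4e-07). Shavenoid (sha), which shapes the hairs and denticles of epidermal cells, had 4.54, 6.89, 5.38 and 11.5 and 35.2, 39.5, 39.2 and 41.6 (log2 fold change 2.46 ± 0.27 (SE), adjusted p = 4.0e-06), and ovo, whose shavenbaby form switches those hairs on, rose from 15.2 ± 5.74 to 32.6 ± 1.95 (1.14, adjusted p = 5.6e-04). The control levels were under 20 apart from grn and CG3598. Control replicate 2 was the highest control library in 10 of the 15, as for CG9698 with 2.42, 6.76, 2.61 and 2.11 in control and 31.0, 29.4, 32.8 and 31.3 in grn RNAi (log2 fold change 3.12 ± 0.33 (SE), adjusted p = 2.7e-06). All 15 were also called higher on HSD, as were 141 of the 191 genes that rose at least 2-fold on LSD (73.8%). Below the level minimum, and chosen after its values were seen, the pair-rule gene ftz had 0.130, 0.221, 0.198 and 0.352 in control and 7.34, 7.91, 6.45 and 6.84 in grn RNAi (log2 fold change 3.40 ± 0.11 (SE), adjusted p = 1.3e-11).

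Several of the rises are neighbours as well. PH4alphaMP, named as a prolyl 4-hydroxylase alpha subunit, lies on chromosome 3R from 30491813 to 30496153 and had 7.22, 10.6, 6.85 and 7.35 in control and 38.2, 38.6, 40.3 and 45.6 in grn RNAi (log2 fold change 2.29 ± 0.12 (SE), adjusted p = 3.4e-09). CG31371 (2.47, adjusted p = 3.2e-06) and CG9698, its neighbours on 3R, rose with it. CG32073 (chromosome 3L from 11107008 to 11107582) and CG12522 (chromosome 3L from 11108235 to 11108732) are adjacent and rose from 9.38 ± 2.75 to 59.4 ± 12.6 (2.62, adjusted p = 2.6e-07) and from 6.70 ± 3.05 to 55.0 ± 15.0 (3.05, adjusted p = 3.0e-06). The only run of at least 5 genes that rose 2-fold lies on chromosome X from 2925884 to 2946589, with 6 of 8 tested genes from CG14424 to CG14423. In it CG3598 had 85.8, 154, 78.6 and 130.0 in control and 560.0, 527, 602 and 635 in grn RNAi (log2 fold change 2.42 ± 0.25 (SE), adjusted p = 2.3e-06). Its neighbour CG14422 had 1258, 1111, 761 and 1248 and 3192, 3024, 3420.3 and 2909 (log2 fold change 1.54 ± 0.26 (SE), adjusted p = 1.9e-04), the largest gain of level among genes that passed with no overlap. On HSD CG3598 also rose (1.23, adjusted p = 0.0014), while CG14422 gave 0.42 (adjusted p = 0.22), and the difference between the diets did not pass for either.

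Of the 4 other largest gains of level, 2 were secreted proteins. Tenectin (tnc), a mucin-like protein of the extracellular matrix, had 348, 419, 439 and 614 in control and 1553, 1626, 1873 and 1960.0 in grn RNAi (log2 fold change 1.97 ± 0.22 (SE), adjusted p = 3.6e-06). The odorant-binding protein Obp56a had 449, 596, 297 and 472 and 1720.4, 1659, 1763 and 1819 (log2 fold change 1.98 ± 0.19 (SE), adjusted p = 8.3e-07), and CG7465 882, 808, 679 and 886 and 2688, 2317, 2639 and 2393 (log2 fold change 1.63 ± 0.14 (SE), adjusted p = 3.0e-07). CG7299 rose from 1258 ± 199.6 to 2399 ± 349 (0.93, adjusted p = 1.3e-04). Of 22 measured odorant-binding and chemoreceptor genes 5 rose and 5 fell, and Obp56d and Obp83g fell (-3.42, adjusted p = 3.8e-04 and -2.75, adjusted p = 2.1e-08) where Obp56a and Obp99a (30.8 ± 4.0 to 60.4 ± 2.71, 0.97, adjusted p = 1.2e-07) rose. Narrow (nw), a lectin-like protein, rose from 84.7 ± 16.4 to 397 ± 18.7 (2.24, adjusted p = 2.5e-08).

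Digestive enzymes fell with little spread between libraries. Of 27 trypsins and Jonah proteases 26 fell (96.3%, median -1.04). Jon25Bii had 1432, 1218, 1547 and 1484 in control and 169, 174, 178 and 195 in grn RNAi (log2 fold change -2.98 ± 0.08 (SE), adjusted p = 3.5e-12), and Jon74E 343, 286, 276 and 296 and 19.0, 21.2, 17.2 and 25.8 (log2 fold change -3.83 ± 0.12 (SE), adjusted p = 9.4e-12). All 5 measured genes of the lysozyme list fell, 1 of which, LysC, is annotated as a pseudogene. Lysozymes act on bacterial walls in the gut, and LysS had 894, 804, 765 and 776 in control and 72.1, 53.4, 62.3 and 65.7 in grn RNAi (log2 fold change -3.67 ± 0.14 (SE), adjusted p = 6.1e-11). Of 14 maltases and amylases 10 fell, led by Mal-A7 (-2.61, adjusted p = 5.7e-10) and Mal-A6 (566 ± 49.7 to 103 ± 5.52, -2.46, adjusted p = 2.8e-11). All 6 measured lysosomal alpha-mannosidases also fell, with LManVI at 1224, 1054, 1657 and 1655 in control and 281, 334, 297 and 209 in grn RNAi (log2 fold change -2.31 ± 0.20 (SE), adjusted p = 3.6e-07). In each of these genes every grn RNAi library lay below every control library. Near-identical copies such as Jon25Bi and Jon25Bii, or LysD and LysE, can share reads, so single members of such pairs are uncertain.

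The factors that set midgut identity changed less than the enzymes. GATAe, a GATA factor of the midgut, had 37.9, 41.5, 43.5 and 43.7 in control and 27.4, 29.2, 31.6 and 27.4 in grn RNAi (log2 fold change -0.52 ± 0.06 (SE), adjusted p = 8.6e-06), and lab, which specifies the copper cells, gave -0.27, adjusted p = 0.031. Of 18 GATA and gut factors 7 rose and 2 fell, against 11 and 1 with quantile normalization and 14 and 1 with equal sums. The factors that rose included the hindgut factor byn (8.01 ± 0.879 to 12.1 ± 1.04, 0.57, adjusted p = 3.9e-04) and serpent (srp, 0.28, adjusted p = 0.0035). The other GATA genes, pnr (0.27, adjusted p = 0.11) and GATAd (0.08, adjusted p = 0.23), did not pass. Of 19 midgut markers 14 fell, and their summed level was 3992 to 4292 in the control libraries and 2339 to 2525 in the grn RNAi libraries. Most of these markers also stand in the digestive, GATA or other lists used here, and those in no other list, mex1, Myo31DF, Myo61F, Npc1b and Npc2f, also fell. The peptide hormone CCHa2, which signals nutrient state to the brain, fell from 89, 84.4, 74.1 and 82.5 to 33.7, 32.5, 34.8 and 33.8 (log2 fold change -1.28 ± 0.06 (SE), adjusted p = 4.6e-10). In its list of 14 gut peptide hormones 3 rose and 3 fell, CCHa2 included, while with equal sums 8 were higher and 1 lower.

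Among the detoxification enzymes the P450s fell most often. Of 71 cytochrome P450 genes 53 fell (74.6%) and 6 rose (8.45%), with a median of -0.60. The counts were 47 and 10 with quantile normalization and 39 and 12 with equal sums. Cyp4p2 had 75.5, 71.5, 69.5 and 63.4 in control and 12.8, 13.1, 13.7 and 13.4 in grn RNAi (log2 fold change -2.36 ± 0.07 (SE), adjusted p = 9.4e-12). Cyp311a1 fell from 11 ± 0.571 to 3.41 ± 0.194 (-1.55, adjusted p = 1.4e-11). Of 32 glutathione S-transferases 10 rose (31.25%) and 13 fell (40.6%), nearer the 27.1% of all genes in each direction. The counts were 12 and 11 with quantile normalization and 14 and 10 with equal sums. Of the D class GstD5, GstD8, GstD4, GstD3, GstD10, GstD1 and GstD7 rose and GstD2 fell, whereas of the E class GstE8 (33.8 ± 1.67 to 15.0 ± 1.45, -1.15, adjusted p = 2.5e-08), GstE6, GstE11, GstE5, GstE12, GstE7, GstE13 and GstE9 fell. Class members that did not pass are not counted here, and this split by class was seen in the values and was not tested. GstT4 fell from 139 ± 15.9 to 55.6 ± 4.59 (-1.31, adjusted p = 9.9e-09). Of 33 UDP-glycosyltransferases 17 fell (51.5%) and 8 rose (24.2%), against 16 and 9 with quantile normalization and 16 and 10 with equal sums. CG4302 was up (237 ± 3.63 to 354 ± 29.4, 0.58, adjusted p = 3.0e-07) and Ugt86Dh down (18.3 ± 0.764 to 9.98 ± 0.474, -0.84, adjusted p = 6.5e-07).

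Among genes that handle metals 6 of 10 fell and 2 rose. Both ferritin chains, which store iron and whose genes overlap on chromosome 3R, fell by like amounts, Fer1HCH from 774 ± 48.0 to 525 ± 17.7 (-0.56, adjusted p = 7.1e-08) and Fer2LCH from 704 ± 35.2 to 466 ± 19.2 (-0.59, adjusted p = 7.9e-08). MtnB, a metallothionein, fell (-1.08, adjusted p = 1.9e-04), and Tsf1, the iron transferrin of the blood, rose (0.72, adjusted p = 0.0052). Catalase (Cat), which removes hydrogen peroxide, fell from 291 ± 25.1 to 139.6 ± 4.62 (-1.05, adjusted p = 9.1e-09).

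**Figure D4:**
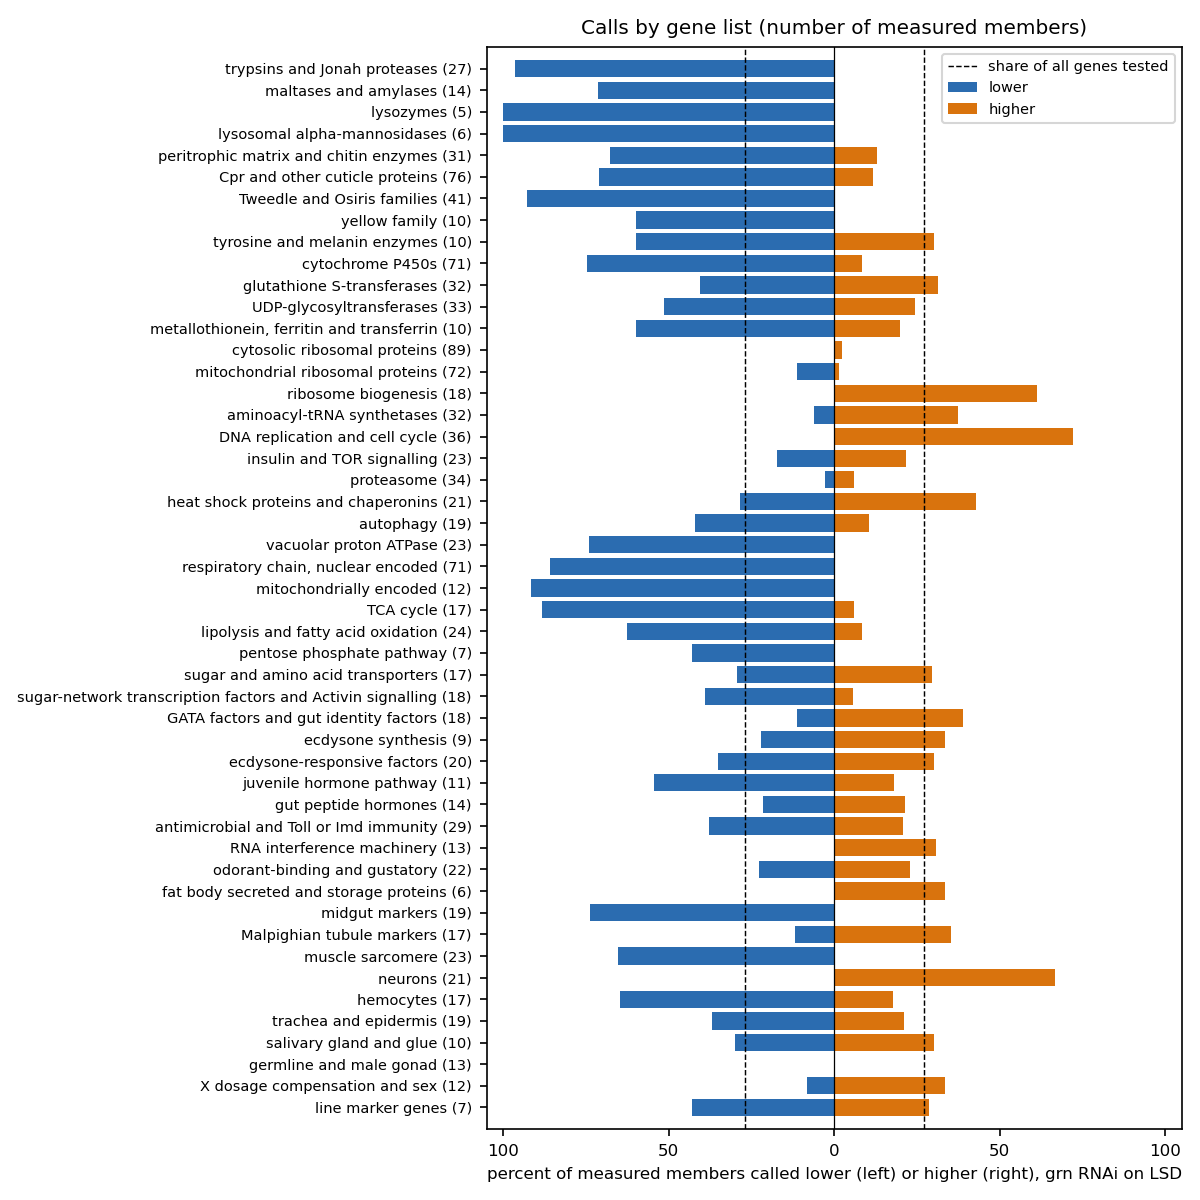
Share of the measured members of each gene list (number in parentheses) called lower (left, blue) or higher (right, orange) at an adjusted p under 0.05, in grn RNAi larvae on the low sugar diet. Dashed lines mark the share of all genes tested, 27.1% in each direction. Proteases, lysozymes, mannosidases and the Tweedle and Osiris genes reach furthest to the left, and DNA replication, neurons and ribosome biogenesis furthest to the right.

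Of 36 measured genes of DNA replication and the cell cycle 26 were higher (72.2%, median 0.33), and 26 lay fully above the control libraries, as did 23.1% of all genes tested. Of the 36, between 26 and 31 were higher under the 3 other scalings. RnrL, the large subunit of ribonucleotide reductase, had 47.8, 44.4, 48.6 and 45.3 in control and 67.9, 67.6, 69.5 and 68.1 in grn RNAi (log2 fold change 0.55 ± 0.04 (SE), adjusted p = 9.3e-08). The helicase subunit dpa (Mcm4) had 31.4, 32.6, 33.6 and 32.4 and 46.1, 45.0, 47.3 and 44.2 (log2 fold change 0.48 ± 0.04 (SE), adjusted p = 1.9e-07), and CycE, which drives entry into S phase, rose from 14.9 ± 1.32 to 26.7 ± 0.696 (0.82, adjusted p = 1.2e-06). stg, the phosphatase that triggers mitosis, went from 10.8 ± 0.903 to 9.37 ± 0.755 and did not pass (-0.20, adjusted p = 0.051).

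Of 18 ribosome biogenesis genes 11 rose, led by nop5 (213 ± 13.3 to 285 ± 11.7, 0.42, adjusted p = 0.0011) and pit (0.36, adjusted p = 0.0024). Without control replicate 3 the count was 5, without control replicate 4 or grn RNAi replicate 3 it was 6. The ribosomal proteins themselves changed little. Of 89 genes listed as cytosolic ones 2 passed, and both are named only as like a ribosomal protein (RpLP0-like 0.31, adjusted p = 0.012, and RpL24-like 0.21, adjusted p = 0.039). The median of the list was -0.01, while 55 were higher under quantile normalization and 74 with equal sums. Without control replicate 3, 11 were lower. RpL24-like missed the threshold in 6 of the 8 fits that left out a library, all but those without control replicate 1 or grn RNAi replicate 2. Of 32 aminoacyl-tRNA synthetases 12 rose and 2 fell, against 20 and 1 with quantile normalization and 29 and 1 with equal sums, with MetRS at 90.3, 95.7, 92.3 and 95.6 in control and 120.3, 123, 131 and 123 in grn RNAi (log2 fold change 0.41 ± 0.05 (SE), adjusted p = 5.6e-06). Of 23 insulin and TOR genes 5 rose and 4 fell, against 13 and 2 with quantile normalization and 14 and 1 with equal sums. The insulin receptor InR, which foxo switches on, rose from 18.4 ± 4.77 to 28.7 ± 2.35 (0.66, adjusted p = 0.0012), and Thor, the 4E-BP that foxo also switches on, fell from 96.8 ± 24.5 to 47.8 ± 2.61 (-0.98, adjusted p = 7.5e-04).

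Of 21 chaperone genes 9 rose and 6 fell, against 11 and 3 both with quantile normalization and with equal sums. Those that rose were 7 subunits of the CCT chaperonin or genes matched to them, Hsc70Cb and Hsc70-3, the BiP of the endoplasmic reticulum (1369 ± 90.6 to 1924 ± 43.8, 0.49, adjusted p = 8.2e-04). Those that fell included the mitochondrial Hsp60 (-0.16, adjusted p = 0.023) and the stress-induced Hsp68 (16.7, 15.7, 17.5 and 15.4 in control, 8.85, 8.49, 5.48 and 7.07 in grn RNAi, log2 fold change -1.10 ± 0.13 (SE), adjusted p = 6.3e-06) and Hsp70Bb (-0.59, adjusted p = 1.2e-05), whose near-identical copies share reads. Of 34 proteasome genes 2 rose and 1 fell, while 23 were higher with quantile normalization and 27 with equal sums. Prosbeta5, at -0.15, adjusted p = 0.03, turned upward under quantile normalization (0.091) and with equal sums (0.057), and missed the threshold without control replicate 1 or 2 or grn RNAi replicate 2 or 4. Of 19 autophagy genes 8 fell and 2 rose, but 5 were lower and 3 higher with quantile normalization and 3 and 8 with equal sums. Atg18b fell from 11.9 ± 1.43 to 6.92 ± 0.405 (-0.74, adjusted p = 2.0e-05).

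Under the deposited scaling most V-ATPase and respiratory chain genes were lower, by small amounts. All 17 V-ATPase genes that passed, of 23, were lower (median -0.27), with Vha100-5 at 224, 219, 233 and 234 in control and 145, 165, 166 and 155.8 in grn RNAi (log2 fold change -0.53 ± 0.06 (SE), adjusted p = 3.6e-06) and Vha55 at 1169, 1145, 1225 and 1214 and 929.5, 929, 941 and 928 (log2 fold change -0.35 ± 0.04 (SE), adjusted p = 4.5e-06). Of 71 nuclear genes of the respiratory chain 61 were lower (median -0.21), and SdhA, the flavoprotein of complex II, had 479, 484, 478 and 474 and 408, 403, 411 and 399 (log2 fold change -0.24 ± 0.02 (SE), adjusted p = 2.2e-06). These calls rest on the scaling. With equal sums 6 V-ATPase and 6 respiratory chain genes were lower, and with quantile normalization 4 and 3, with 5 and 18 higher, and SdhA then turned upward (0.082). Relative to the median of all genes the respiratory chain stood at -0.24 under the deposited scaling, -0.23 with equal sums and -0.09 with quantile normalization. The 12 genes encoded in the mitochondrial genome fell more, 11 of 12, with mt:ND4 at 2720.3, 2663, 2347 and 2212 in control and 1438, 1926, 1390.5 and 1646 in grn RNAi (log2 fold change -0.64 ± 0.12 (SE), adjusted p = 3.7e-04), and 8 of 12 were lower under either of those scalings. mt:CoI, at 13529 to 14609 in control and 9807 to 12581 in grn RNAi (-0.35, adjusted p = 0.0019), gave the largest loss of level among genes that passed with no overlap.

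Genes of fat breakdown fell more often than they rose under the deposited scaling. Of 24 lipolysis and fatty acid oxidation genes 15 fell and 2 rose, but with quantile normalization 6 were lower and 5 higher and with equal sums 5 and 7. Magro (mag), a lipase and sterol esterase of the gut, had 120.0, 77.8, 127 and 85.4 in control and 26.2, 18.8, 22.4 and 24.2 in grn RNAi (log2 fold change -2.12 ± 0.16 (SE), adjusted p = 8.8e-08). The carnitine palmitoyltransferase whd fell from 107 ± 13.4 to 54.9 ± 6.19 (-0.95, adjusted p = 2.7e-06), and the peroxisomal oxidase Acox57D-p from 46.9 ± 3.26 to 26.7 ± 1.66 (-0.80, adjusted p = 6.1e-08). Of 7 genes of the pentose phosphate pathway 3 fell (2 were lower and 2 higher both with quantile normalization and with equal sums). Glucose 6-phosphate dehydrogenase (Zw) fell from 56.4 ± 3.94 to 38.1 ± 1.37 (-0.56, adjusted p = 1.2e-06) and transaldolase (Taldo) from 449 ± 48.1 to 334 ± 14.5 (-0.42, adjusted p = 5.6e-05). Of 17 sugar and amino acid transporters 5 fell and 5 rose (4 and 6 with quantile normalization, 3 and 9 with equal sums). The citrate transporter Indy fell from 312 ± 14.3 to 189 ± 8.41 (-0.73, adjusted p = 5.9e-08), and minidiscs (mnd), a leucine transporter, rose from 50.4 ± 0.212 to 73.5 ± 2.77 (0.54, adjusted p = 2.5e-06). Among 18 sugar-responsive factors and Activin genes 7 fell and 1 rose, but 3 were lower and 5 higher with quantile normalization and 1 and 7 with equal sums. They include cabut (cbt) from 67.3 ± 6.16 to 48.4 ± 1.5 (-0.47, adjusted p = 5.5e-05) and the ligand gbb from 24.9 ± 1.18 to 30.0 ± 1.62 (0.26, adjusted p = 7.5e-04).

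Some clock genes, chosen after their values were seen, passed in opposite directions, where 54.2% of all genes tested passed. Timeless (tim), which represses the clock with its partner period, fell from 5.57 ± 0.811 to 1.17 ± 0.178 (-1.86, adjusted p = 4.5e-08). Vrille (vri) rose from 17.0 ± 4.10 to 50.5 ± 2.66 (1.57, adjusted p = 2.8e-05), and Pdp1, which acts against vri on the Clock gene, fell from 294 ± 6.60 to 194 ± 12.1 (-0.60, adjusted p = 9.2e-07). cyc (-0.22, adjusted p = 0.24) and cwo (0.10, adjusted p = 0.2) did not pass. On HSD vri gave 0.19 (adjusted p = 0.5), and the difference between the diets passed (adjusted p = 0.017).

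Of 29 immunity genes 11 fell and 6 rose, but 8 were lower and 9 higher with quantile normalization and 7 and 12 with equal sums. The antimicrobial peptides Drosocin (Dro, 1.46, adjusted p = 0.0022) and IM4 (1.02, adjusted p = 7.5e-05) rose from means under 1. The NF-kappaB factor Dif fell from 37.6 ± 2.91 to 27.4 ± 0.760 (-0.45, adjusted p = 8.6e-06), and the thioester protein Tep3 from 51.9 ± 7.60 to 30.4 ± 1.90 (-0.75, adjusted p = 3.9e-05). Of 13 genes of the RNA interference machinery 4 rose (8 with quantile normalization, 11 with equal sums), among them r2d2 (31.5 ± 1.15 to 36.3 ± 0.883, 0.20, adjusted p = 0.0031) and Dcr-1 (0.32, adjusted p = 0.0038).

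Markers of the tissues in a whole larva differed between the groups in several organs, and their part in the results above was not tested. Of 21 neuron markers 14 rose, with nSyb at 34.9, 33.5, 33.8 and 31.8 in control and 39.7, 41.5, 41.6 and 44.1 in grn RNAi (log2 fold change 0.31 ± 0.05 (SE), adjusted p = 1.5e-04). Without control replicate 1 or grn RNAi replicate 4 the count was 9, and the summed level of the markers was 726 to 869 in the control libraries and 868 to 999.7 in the grn RNAi libraries. Of 23 sarcomere genes 15 fell, their sum was 61023 to 66322 in the control libraries and 53448 to 58621 in the grn RNAi libraries, and Act87E fell from 442 ± 61.1 to 255.5 ± 22.9 (-0.78, adjusted p = 3.9e-05). That count was 4, with 5 higher, under quantile normalization, and 2, with 2 higher, with equal sums. Of 17 hemocyte markers 11 fell and 3 rose (sum 10282 to 12062 in the control libraries and 9065 to 9646 in the grn RNAi libraries), with the scavenger receptor crq from 75.5 ± 5.10 to 43.4 ± 2.27 (-0.79, adjusted p = 4.3e-07). That was the largest fall in the list, and its largest rise was 0.59, that of the crystal cell gene PPO2. With quantile normalization or equal sums 5 fell.

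In the epidermis and trachea 7 of 19 markers fell and 4 rose (sum 6759 to 8441 in the control libraries and 3739.6 to 4084 in the grn RNAi libraries), and the markers with the largest falls, dyl, verm, serp, Gasp and kkv, are themselves cuticle genes. The epithelial factor grh fell (-0.57, adjusted p = 8.0e-04), and the apical protein crb rose (0.28, adjusted p = 0.0085). Of 17 Malpighian tubule markers 6 rose and 2 fell, with the potassium channel Irk2 up (67.4 ± 8.90 to 117 ± 5.06, 0.80, adjusted p = 2.0e-05), the chloride channel Best2 down (-0.80, adjusted p = 9.6e-07) and overlapping sums, 674 to 809 in the control libraries and 712 to 749 in the grn RNAi libraries. Of 6 fat body genes 2 rose, with Mtp, the microsomal triglyceride transfer protein, from 178 ± 15.6 to 237 ± 8.76 (0.42, adjusted p = 1.2e-04), and the sums overlapped at 6505 to 9004 in the control libraries and 6279.8 to 7275 in the grn RNAi libraries. Most of these sums came from apolpp (Rfabg), at 6768 ± 892 in control and 5989 ± 490 in grn RNAi, which did not pass (-0.17, adjusted p = 0.13). Of 10 salivary gland genes 3 rose, among them Muc26B (0.85, adjusted p = 1.6e-07), and 3 fell, among them ng2 (-1.0, adjusted p = 5.4e-05) and ple, which is also a tyrosine enzyme of the cuticle. Their sums did not overlap, at 637 to 689 in the control libraries and 728 to 827 in the grn RNAi libraries. Of 12 sex and dosage compensation genes 4 rose and 1 fell, the last being fruitless (fru, 157 ± 21.5 to 76.2 ± 6.23, -1.03, adjusted p = 1.1e-05). Sums of the 12 overlapped, at 437 to 529 in the control libraries and 433 to 539 in the grn RNAi libraries.

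The same genotypes on HSD, in 8 other libraries, gave 3894 calls (39.1%), 1785 of them higher (17.9%) and 2109 lower (21.2%). Of the 705 genes that fell at least 2-fold on LSD 615 were also called lower on HSD (87.2%), and of the 191 that rose 141 were also called higher (73.8%). Log2 changes on the 2 diets correlated at 0.904 over 9950 genes, which are not independent replicates. The change differed between the diets in 532 genes (5.35%), among them 29 of the 191 and 77 of the 705. Of the 76 cuticle proteins 1 passed that test, which their wide spread between libraries limits, and of the 27 proteases 22 passed. Jon74E gave -3.83 on LSD and -2.84 on HSD (adjusted p of the difference 0.0036), and Mal-A8 gave -1.84 and -0.52 (adjusted p = 2.7e-06). The chitinase Cht9 went from 121 ± 5.56 to 47.9 ± 5.76 on LSD and from 71.8 ± 2.48 to 86.3 ± 7.64 on HSD, opposite directions that both passed (difference adjusted p = 2.7e-06). GstD5 and tnc rose more on LSD than on HSD (2.63 against 1.28, and 1.97 against 0.80).

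**Figure D5:**
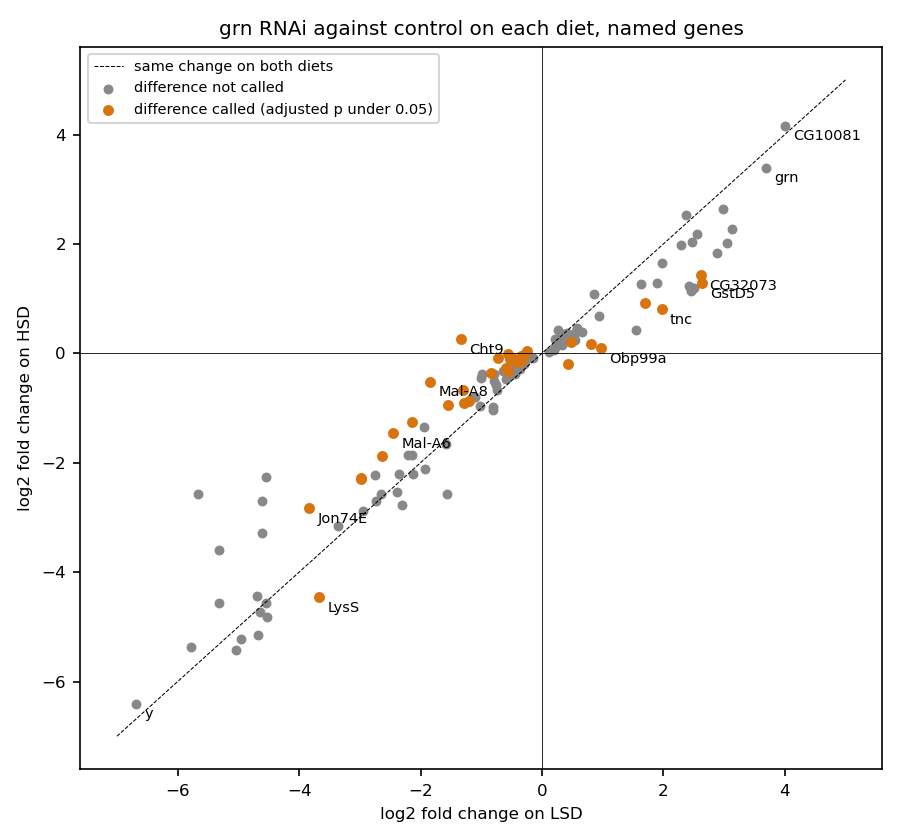
Log2 fold change in grn RNAi against control on HSD against that on LSD for the 129 named genes. The dashed line marks equal change, and orange points are the 33 genes whose change differed between the diets at an adjusted p under 0.05. Most of these lie nearer 0 on HSD than on LSD, Cht9, Mtp and SdhA change sign, and y, grn and CG10081 lie near the line.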

How the data were processed

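RNA of whole larvae was sequenced in 16 libraries, 4 each of control and grn RNAi on LSD and HSD. Per the labels and the paper's methods, the authors used Trimmomatic for trimming, TopHat2 2.1.0 for alignment to a FlyBase Release 6 genome, HTSeq (listed as 2.7.6) for counting by strand, and limma. They deposited a normalized signal per gene and library, a CPM-like value whose steps gave whole reads for 100% of values (within 0.01 read). The deposited columns of fold changes, test statistics and p-values for 4 comparisons were not used.

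Levels were fitted as log2(value + 0.5) by limma 3.58.1 (R 4.3.3) over all 16 libraries, with no replicate block, Benjamini-Hochberg adjustment and a threshold of 0.05. Of 9982 genes 9950 were kept, each exceeding 1 in 3 or more libraries of some group. The fit was run on simulated counts with the same dispersion for every gene, which cannot show how it does for genes of wide spread. The alternatives were pseudocounts of 0.1 and 1, filters, 3 scalings, edgeR 4.0.16 and DESeq2 1.42.0 on the recovered reads, the 8 LSD libraries alone, a replicate block and leaving out each library. Tables were read with data.table (version 1.17.8), Python 3.11.15, pandas 2.3.3 and numpy 2.4.6, and drawn with matplotlib 3.10.9.

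The text names grn, the 15 genes with the largest change each way (adjusted p under 0.05, mean of at least 10 in a group, no overlap), the 5 largest gains and losses of level, and, in each list, up to 2 genes of lowest adjusted p. All further genes were picked with their values in view. Genes of glycolysis and lipogenesis were left out. The members and lists were chosen with earlier results of these data known, and Lac and LysRS were taken out of lists they do not belong to, with values in view. Positions are those of Ensembl annotation of Release 6 by FlyBase number, with 9812 genes matched. Nothing says that the pools came from separate crosses, so p-values measure the spread between these libraries. Promoter, protein and other sequences were not analysed here. The result for 1 gene is not reported here.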

Additional observations from a re-analysis of the deposited data

Results flagged for a closer look

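Among the LSD groups of the 129 named genes, 18 of 258 groups of 4 libraries held a library far from the other 3 (gap over range above Dixon's 95% critical value), where chance gives about 1 in 20. In grn RNAi, replicate 1 was the highest library for Lcp9 (2.05), CG14851 (5.41), CG14564 (69.6), CG14568 (39.4), CG4229 (13.7) and CG42819 (13.5). Replicate 3 of grn RNAi was the highest for Tb (84.4), TwdlQ (18.4), Fer2LCH (495), Vha55 (941) and Jheh3 (107), and the lowest for y (16.5, the others from 26.4 to 27.4). In control, replicate 2 was the highest for CG9698 (6.76), CG13640 (7.86) and PH4alphaMP (10.6) and the lowest for CG10081 (4.55). Control replicate 1 was the highest for Act57B (18528) and control replicate 3 the lowest for gbb (23.2).

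For 33 named genes the log2 change between the genotypes differed between LSD and HSD by limma's interaction term, at adjusted p between 2.7e-06 (Cht9) and 0.041 (tnc). The values below are the change on HSD minus that on LSD, negative where the change was more positive on LSD. Of digestive enzymes, lysozymes and chitinases, Cht9 differed by 1.59, Mal-A8 by 1.32, Jon74E by 0.99, Mal-A6 by 0.99, betaTry by 0.89, LysB by 0.76, Jon25Bii by 0.70 and Jon25Bi by 0.68, while LysS, lower still on HSD, differed by -0.78. Of the detoxification and iron genes, GstD5 differed by -1.35, GstT4 by 0.63, Cyp311a1 by 0.61, Ugt86Dh by 0.49, Fer2LCH by 0.33 and Fer1HCH by 0.24. Of energy and transport genes, Indy differed by 0.65, Zw by 0.53, Vha100-5 by 0.42, Vha55 by 0.31, SdhA by 0.28, ND-39 by 0.27 and skap by 0.22. Of hormone genes, E23 differed by -0.77, CCHa2 by 0.37, Jheh3 by 0.32 and Jheh1 by 0.26. The others were CG32073 (-1.19), tnc (-1.17), Obp99a (-0.87), Irk2 (-0.64), Mtp (-0.62), Dat (0.41) and dpa (-0.28). In 24 of the 33 the value was positive.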

How the results depend on the processing

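The main counts were 2699 genes higher and 2692 lower. Quantile normalization gave 4105 higher and 1905 lower, and equal sums gave 5368 and 1598, while median-of-ratios scaling gave 2651 and 2733. The reads recovered from the deposited values gave 2660 and 2681 with edgeR's quasi-likelihood test and 2694 and 2827 with DESeq2, and the 8 LSD libraries alone 2417 and 2530. Leaving out single libraries gave 2369 to 2604 higher and 2450 to 2641 lower. Of the 129 named genes, the log2 fold change of Prosbeta5 turned to 0.091 under quantile normalization and to 0.057 with equal sums, and that of SdhA to 0.082 under quantile normalization. The cause was not tested. Named genes that missed the threshold in the same direction numbered 7 under quantile normalization, 4 with equal sums, 7 with edgeR, 4 with DESeq2, 2 in the LSD libraries alone and 1 to 8 without a single library, and the other pseudocounts and filters and median-of-ratios scaling moved none of the 129 calls. With edgeR these were CG14564, Ipod, TwdlJ, CG14568, CG4229, CG42819 and TwdlK, all of wide spread. Chosen after seeing the data, the count of named genes that differed between the diets was 33, and 27 to 34 without single libraries.

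Replicate numbers were shared by the groups, but same-numbered libraries deviated together only for replicate 1 (r = 0.43). For replicates 2 to 4 r was -0.06, -0.14 and 0.01, so the numbers were not taken as pairs. With the replicate block 2670 genes were higher and 2653 lower, and no call of a named gene changed. Control replicate 2 correlated best with grn RNAi replicate 3 (0.46). For genes with means under 1, counting error limits the fold changes.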

Other observations

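Further genes, chosen after their values were seen, changed 2-fold or more. Fatp, a fatty acid transport protein, fell from 178 ± 31.7 to 42.0 ± 7.11 normalized CPM (mean and SD of 4 libraries, log2 fold change -2.06, adjusted p = 9.8e-06 by limma). The scavenger receptor ninaD, which takes up carotenoids, fell from 198 ± 42.4 to 27.5 ± 5.19 (-2.81, adjusted p = 2.9e-08). Windbeutel (wbl) and pipe (pip), which act in the secretory pathway to modify proteins and sugars for dorsoventral patterning of the egg, both rose, wbl from 22.6 ± 4.39 to 80.0 ± 2.01 (1.82, adjusted p = 1.1e-07) and pip from 135 ± 19.1 to 294 ± 2.93 (1.13, adjusted p = 3.7e-06). Dusky-like (dyl), a zona pellucida domain protein of the apical surface of hair cells, fell from 388 ± 126 to 65.0 ± 39.4 (-2.74, adjusted p = 2.6e-04), opposite to sha and ovo. The nuclear receptor Hr38, of the Nr4a family, fell from 5.76 ± 4.53 to 0.962 ± 0.601 (-1.94, adjusted p = 0.008). Of genes known by identifier, CG32241 rose from 161 ± 65.2 to 721 ± 97.9 (2.24, adjusted p = 3.4e-06) and CG32603 from 294 ± 23 to 1242 ± 136 (2.07, adjusted p = 6.6e-09).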
